A study of Mus musculus with 4 samples.

Results

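The genes described here are Hic1, its paralog Hic2 and the genes of proteins tied to Hic1 repression: Ctbp1, Ctbp2, Mta1, Hdac4, Arid1a and Sirt1. They were chosen by gene symbol, 8 of the 55401 genes in the count table. P14 CD8+ T cells are mouse T cells whose transgenic receptor recognises lymphocytic choriomeningitis virus (LCMV). Their RNA was sequenced from the spleen of mice infected with LCMV Armstrong. The cells carried an empty vector (2 libraries, the controls) or a vector that overexpresses Hic1 (2 libraries), both named pMIA in the sample titles, and transduced cells were sorted and then sorted again. The sample labels place both groups at day 32 of infection and the series text at day 7. Mouse strain, age and the promoter of the vector are not stated there.

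Hic1 (hypermethylated in cancer 1) is a transcriptional repressor with an N-terminal BTB domain, which mediates dimerisation and repression, and C-terminal zinc fingers that bind DNA. It represses through partners: the CtBP proteins, which bind its central region and bring histone-modifying enzymes; Mta1, a subunit of the nucleosome remodelling and deacetylase (NuRD) complex; and Arid1a, a DNA-binding subunit of the SWI/SNF chromatin remodeller. Sirt1 is a NAD-dependent deacetylase whose gene is a classic Hic1 target and which, together with Hdac4, acts on Hic1 in the switch between its acetylated and sumoylated forms. In T cells Hic1 is known as a gene induced by retinoic acid in the intestine.

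Total gene counts were 3941364 to 4017346 in the control libraries and 7501285 to 8839317 in the Hic1 vector libraries, which were thus the deeper ones. Libraries of the same replicate number shared sex-linked transcripts: Xist had 1885 and 3590 counts in the libraries numbered 1 and 0 and 3 in those numbered 2. Eif2s3y, a gene of the Y chromosome, had 0 and 0 counts in the libraries numbered 1 and 396 and 951 in those numbered 2. The cells numbered 1 and those numbered 2 thus differed in sex and did not come from the same mouse. The spread within a group therefore includes a difference in sex. Whether the libraries of the same number shared a donor mouse is not stated. The 7 CD8 T cell markers, Cd8a and Cd3e among them, summed to 5236 to 6226 CPM (counts scaled to a common library size). B cell markers summed to 79.6 and 88.7 CPM in the control libraries and to 279.3 and 213.3 CPM in the Hic1 vector libraries. Ighm made up most of that sum and was called higher. Cd79b (67 and 13 counts against 270 and 117) and Cd79a (6 and 0 against 17 and 16) had fitted log2 values of 1.36 ± 0.793 and 1.19 ± 1.03 that did not pass, and Ms4a1 had 0 to 2 counts. Myeloid markers summed to 36.9 and 36.5 CPM in the control libraries and to 15.9 and 23.7 CPM in the Hic1 vector libraries. Most of that was Itgam (33.5 and 28.2 against 15.5 and 17.8 CPM, log2 value -0.88 ± 0.262, not called), then Csf1r with 7 and 21 against 1 and 37 counts, and Lyz2 was at 0 in all but Hic1 vector replicate 2. NK cell markers summed to 49.8 and 61.5 against 64.8 and 82.6 CPM, with Ncr1 at 0 to 2 counts. The other NK cell markers went opposite ways. Klrb1c was at 29.4 and 43.7 CPM with the empty vector against 58.6 and 70.8 CPM with the Hic1 vector (log2 value 0.82 ± 0.231). Eomes was at 20.4 and 17.2 against 6.05 and 11.7 CPM (-1.04 ± 0.370), and neither was called. CD4 T cell markers summed to 9.99 to 33.2 CPM, most of it Cd40lg, which was not called. Erythroid markers summed to at most 2.25 CPM. The part of these other transcripts in the values below was not tested, and in bulk RNA fewer cells with a transcript and less of it per cell cannot be told apart.

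The start regions of Sirt1, Hic1, Ctbp1 and Ctbp2 are shown because Sirt1 is the reported direct target of Hic1, and because the CtBP pair holds the highest and lowest ratio between groups among the partners. Each sequence is the RefSeq promoter window of build GRCm38.p6, from 250 bases before the start to 50 after it, on the minus strand of its chromosome. Capitals mark GGCA or its reverse complement TGCC, the core of the Hic1 binding motif, on either strand and with overlaps allowed.
Sirt1 promoter, chr10:63338986-63339285: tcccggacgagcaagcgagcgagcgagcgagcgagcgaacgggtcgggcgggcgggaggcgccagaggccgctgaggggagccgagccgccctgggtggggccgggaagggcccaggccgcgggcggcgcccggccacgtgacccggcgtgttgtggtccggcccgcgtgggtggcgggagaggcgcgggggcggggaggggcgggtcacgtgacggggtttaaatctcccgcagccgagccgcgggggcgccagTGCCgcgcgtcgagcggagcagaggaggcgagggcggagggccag
Hic1 promoter, chr11:75168103-75168402: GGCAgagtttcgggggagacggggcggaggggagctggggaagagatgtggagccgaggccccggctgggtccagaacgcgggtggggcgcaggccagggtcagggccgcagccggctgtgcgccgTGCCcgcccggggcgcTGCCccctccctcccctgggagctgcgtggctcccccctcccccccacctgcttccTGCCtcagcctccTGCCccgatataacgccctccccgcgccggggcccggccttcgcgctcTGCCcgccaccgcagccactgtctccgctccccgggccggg
Ctbp1 promoter, chr5:33274955-33275254: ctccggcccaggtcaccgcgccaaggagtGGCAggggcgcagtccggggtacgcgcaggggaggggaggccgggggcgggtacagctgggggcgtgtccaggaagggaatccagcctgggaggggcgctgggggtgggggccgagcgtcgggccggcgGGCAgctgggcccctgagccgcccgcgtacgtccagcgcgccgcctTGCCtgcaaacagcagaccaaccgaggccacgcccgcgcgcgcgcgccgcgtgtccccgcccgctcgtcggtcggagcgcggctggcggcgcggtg
Ctbp2 promoter, chr7:133015198-133015497: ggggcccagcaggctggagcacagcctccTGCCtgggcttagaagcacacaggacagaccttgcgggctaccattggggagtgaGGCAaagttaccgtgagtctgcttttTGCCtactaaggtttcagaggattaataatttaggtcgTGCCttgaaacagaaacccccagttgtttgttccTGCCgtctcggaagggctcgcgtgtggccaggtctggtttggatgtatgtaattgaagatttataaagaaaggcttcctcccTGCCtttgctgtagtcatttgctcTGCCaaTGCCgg
All 8 genes matched the RefSeq table by symbol. The Sirt1 window held 1 core match, the Hic1 window 6, the Ctbp1 window 3 and the Ctbp2 window 8. RefSeq gives Hic1 and Ctbp2 another start each, and each of those windows (not printed) held 1 core match. This core is short: 92.4% of the 32851 mouse promoter windows hold at least 1, with a mean of 2.83 per window. The longer form GGGCANCC, searched on both strands, was found in none of the members' windows and in 5.46% of all windows, which says only that these letters are not in these windows. The printed Sirt1, Ctbp1 and Hic1 windows were rich in CpG dinucleotides, with 47, 43 and 29. So were the windows, not printed, of Mta1 (50), Arid1a (36 and 22), Hdac4 (32) and Hic2 (25). The printed Ctbp2 window held 8, against a median of 7 over all windows. Both Ctbp2 windows lie inside the annotated gene, whose outermost start on the minus strand is at position 133124354. The sequence at that start was not examined. The printed Sirt1 and Hic1 windows also lie inside their annotated genes, whose outermost starts are at 63381704 and 75169519.

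Hic1 RNA was far higher with the Hic1 vector. With the group as the only term, none of the other 5 testable genes passed the test, and Ctbp1 came nearest. Ctbp1 did pass with the replicate number added as a block (edgeR adjusted p = 0.0447). With that block and GC correction together it did not (edgeR adjusted p = 0.154). In the fit, which shrinks folds at low counts, Hic1 rose 23.9-fold. Its ratio of pooled rates, not shrunken, was 30.4. Ctbp1 was 1.80-fold higher without passing, and Sirt1, Hdac4, Mta1 and Arid1a had fitted folds between 0.896 and 1.16. Counts were tested with edgeR's quasi-likelihood test, and a gene was called at an adjusted p below 0.05 over all genes tested (Benjamini-Hochberg). Of the 8 genes, 6 had enough counts to be tested and 2 (Hic2 and Ctbp2) did not. Among all 11676 genes tested, 1.82% were called, 84 higher (0.719%) and 129 lower (1.1%). That split was 70 and 251 with library sizes alone as the scaling, 20 and 66 after GC correction, and 461 and 358 with no filter on low counts. Among the 5 tested partners 0 were called, 1 (Ctbp1) had an unadjusted p under 0.05, and DESeq2 and limma voom also called 0. Over all tested genes 19.1% had an unadjusted p under 0.05, so 1 in 5 is near the background. The groups did not overlap in 4 of the 6 tested genes, 3 with the Hic1 vector above and 1 below. Over all tested genes 51.4% did not overlap, 26.5% above and 24.9% below, so such a gap is common here.

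**Figure D1:**
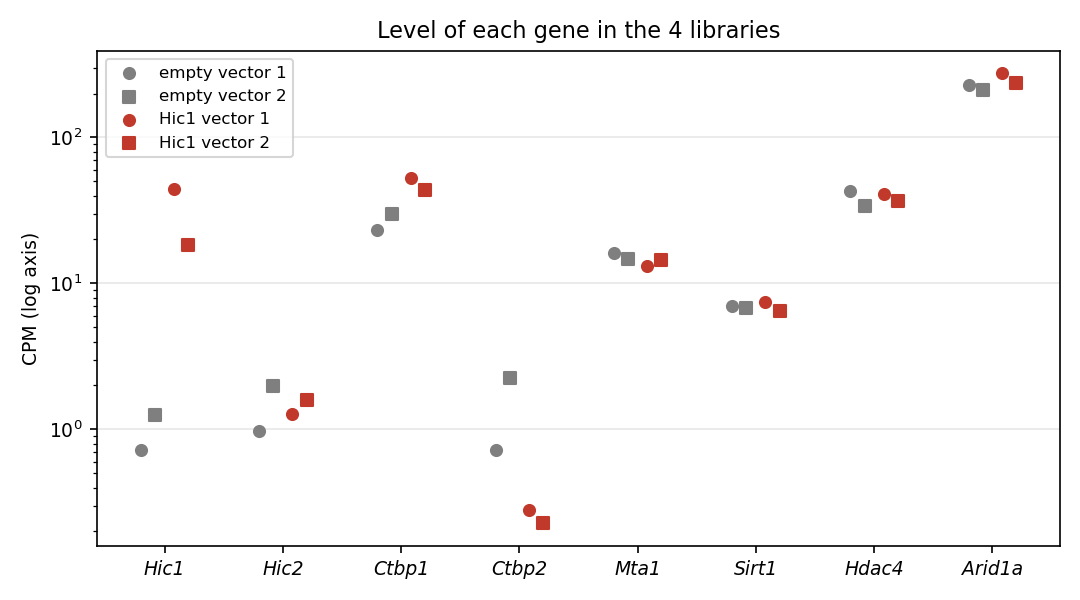
CPM of the 8 genes on a log axis, with 1 point per library (grey for the empty vector, red for the Hic1 vector, circles for replicate 1 and squares for replicate 2). Hic1 separates widely, Ctbp1 sits higher in both Hic1 vector libraries, Ctbp2 sits near the floor, and Sirt1 and Hdac4 overlap.

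Hic1 lies on the minus strand of chromosome 11, positions 75164565 to 75169519 (mm10, GENCODE M21), and no annotated gene overlaps it. It had 3 and 5 counts in empty vector replicates 1 and 2 and 314 and 161 in Hic1 vector replicates 1 and 2. Those counts are 0.728 and 1.25 CPM against 44.2 and 18.3 CPM. The groups did not overlap, and Hic1 vector replicate 1 held more than replicate 2. The log2 fold change was 4.58 ± 0.586 (SE, n = 2 per group). Its 95% interval was 9.74-fold to 58.6-fold, and the edgeR adjusted p was 0.00706. As a plain ratio of rates, which is not shrunken, the pooled libraries gave 30.4 (95% exact counting interval 15.3 to 70.8). Replicate 1 gave 60.7 (20.6 to 296) and replicate 2 gave 14.7 (6.16 to 45.8). Those intervals cover counting error only and leave out variation between libraries. PCR copies were not told apart by molecular identifiers, so the intervals may be too narrow even for counting error. Without Hic1 vector replicate 1 the log2 value was 3.81. Hic1 was not called without empty vector replicate 1 (log2 value 4.34, edgeR adjusted p = 0.108), nor by limma voom (4.68, adjusted p = 0.108), and over all 14 alternatives the adjusted p was 1.14e-23 to 0.108. Reads per gene do not tell transcripts of the vector from those of the chromosomal gene, so this value checks the labels and is no test of the endogenous gene.

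Hic2 (chromosome 16, positions 17233572 to 17263430, plus strand), a BTB zinc finger repressor with zinc fingers close to those of Hic1, stayed at a low count in every library. It had 4 and 8 counts in the control libraries, against 9 and 14 in the Hic1 vector libraries. On the CPM scale these were 0.971 and 2.00 against 1.27 and 1.60, and both Hic1 vector values fell between the empty vector values. The ratio of pooled rates was 0.980 with a 95% counting interval of 0.468 to 2.16. Its exons share 3091 bases with an antisense non-coding gene, Gm26635, and without strand information the reads of both cannot be told apart. Per kilobase of exon, Hic1 was 1.27 and 1.06 times Hic2 in the control libraries and 59.1 and 19.5 times Hic2 in the Hic1 vector libraries. The gap between the paralogs was wide with the Hic1 vector only, while the Hic2 values of the groups overlapped.

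Ctbp1 and Ctbp2 encode the C-terminal binding proteins, NAD(H)-binding corepressors that assemble with Kdm1a, Rcor1, Ehmt1 and Ehmt2. Ctbp1 (chromosome 5, positions 33247723 to 33274994, minus strand) had 95 and 120 counts in the control libraries, against 372 and 384 in the Hic1 vector libraries. That is 23.1 and 30 CPM against 52.4 and 43.8 CPM, with no overlap between the groups. The log2 fold change was 0.85 ± 0.235 (SE, n = 2 per group, 95% interval 0.34 to 1.36), and the adjusted p was 0.0834 by edgeR's quasi-likelihood test. Ctbp1 therefore did not pass over all genes, although its unadjusted p was 0.00343. The log2 value was 0.61 to 1.04 over 14 alternatives, of which 2 called it. These were no filter on low counts (edgeR adjusted p = 0.00952) and the replicate number as a block (edgeR adjusted p = 0.0447). Its transcripts are richer in GC (56.9%) than the median tested gene (49.3%), and with GC correction (a loess trend on GC taken out per library) the log2 value was 0.61.

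Ctbp2 (chromosome 7, positions 132987563 to 133124354, minus strand) was close to the limit of detection. It had 3 and 9 counts in the control libraries, against 2 and 2 in the Hic1 vector libraries, although the Hic1 vector libraries were the deeper ones. In CPM these were 0.728 and 2.25 against 0.282 and 0.228, with no overlap between the groups. The ratio of pooled rates was 0.171 with a counting interval of 0.0401 to 0.563, but within replicate 1 alone the interval was 0.0323 to 3.38. In the fit without a filter on low counts Ctbp2 had a log2 value of -1.59, shrunken toward 0 by the prior count. The SE of its unshrunken coefficient was 1.5, so the 2 values do not form a ratio. The unadjusted edgeR p was 0.0977 and the edgeR adjusted p was 0.738, so no difference was shown. Its exons share 314 bases with Fgfr2. Within each library Ctbp1 exceeded Ctbp2 per kilobase, by 44.0 and 18.5 times with the empty vector and by 258.5 and 266.8 times with the Hic1 vector, ratios that rest on at most 9 Ctbp2 counts.

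Mta1 (chromosome 12, positions 113098278 to 113137206, plus strand), the NuRD subunit, had 67 and 59 counts in the control libraries, against 93 and 128 in the Hic1 vector libraries. On the CPM scale these were 16.3 and 14.7 against 13.1 and 14.6, and the groups only just failed to overlap. Its log2 fold change was -0.16 ± 0.305 (SE, n = 2 per group). Its 95% interval was 0.565-fold to 1.42-fold, and the edgeR adjusted p was 0.823. Among its paralogs, the form measured most was Mta2, at 75.0 and 85.6 RPKM (CPM per kilobase of exon) with the empty vector and 96.1 and 94.7 RPKM with the Hic1 vector. Mta1 was at 5.24 and 4.75 against 4.22 and 4.70 RPKM, so Mta2 exceeded it by 14.3 to 22.8 times within a library. Mta3 lay between them, at 16.5 to 23.2 RPKM.

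Hdac4 (chromosome 1, positions 91928779 to 92195699, minus strand), a class IIa deacetylase that shuttles between nucleus and cytoplasm, had 178 and 136 counts in the control libraries, against 291 and 322 in the Hic1 vector libraries. In CPM these were 43.2 and 34.0 against 41.0 and 36.7, and both Hic1 vector values fell between the empty vector values. The log2 fold change was 0.01 ± 0.224 (SE, n = 2 per group). Its 95% interval was 0.716-fold to 1.41-fold, and the edgeR adjusted p was 0.991. An antisense non-coding gene, Gm26720, shares 3536 exon bases with Hdac4, so part of these reads could belong to it. Hdac7, the class IIa form known from thymocytes, was the highest of Hdac4, Hdac5 and Hdac7 per length, at 11.4 and 13.2 RPKM against 15.8 and 16.1 RPKM. Its log2 value of 0.37 ± 0.160 did not pass (edgeR adjusted p = 0.232).

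Arid1a (chromosome 4, positions 133679008 to 133756769, minus strand) had the most counts of the 8 genes, 943 and 842 with the empty vector and 1956 and 2059 with the Hic1 vector. These are 228.9 and 210.4 CPM against 275.4 and 234.6 CPM, so both Hic1 vector libraries were slightly higher. The log2 fold change was 0.21 ± 0.145 (SE, n = 2 per group). Its 95% interval was 0.932-fold to 1.45-fold, and the edgeR adjusted p was 0.457. After GC correction the log2 value was 0.01. Its alternative subunit Arid1b was at 44.2 and 41.0 CPM against 27.0 and 32.2 CPM, with a log2 value of -0.52 ± 0.223 that did not pass (edgeR adjusted p = 0.230). Per kilobase, Arid1a exceeded Arid1b 5.69 and 5.64 times in the control libraries and 11.2 and 7.99 times in the Hic1 vector libraries.

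Sirt1 (chromosome 10, positions 63319005 to 63381704, minus strand), whose start region is printed above, had overlapping groups. It had 29 and 27 counts in the control libraries, against 53 and 57 in the Hic1 vector libraries. In CPM these were 7.04 and 6.75 against 7.46 and 6.5, so the groups overlapped within 1 CPM. The log2 fold change was 0.02 ± 0.414 (SE, n = 2 per group). Its 95% interval was 0.540-fold to 1.89-fold, and the edgeR adjusted p was 0.990. Differences inside that interval were not excluded. The counting interval of the pooled ratio, which leaves out variation between libraries, was narrower, at 0.722 to 1.41. Per kilobase, Sirt1 was 6.80 and 3.8 times Hic1 in the control libraries and 0.119 and 0.249 times Hic1 in the Hic1 vector libraries. Sirt2 and Sirt7, at 26.8 to 32.3 and 37.4 to 50.7 RPKM, were far above Sirt1, at 1.22 to 1.40 RPKM.

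**Figure D2:**
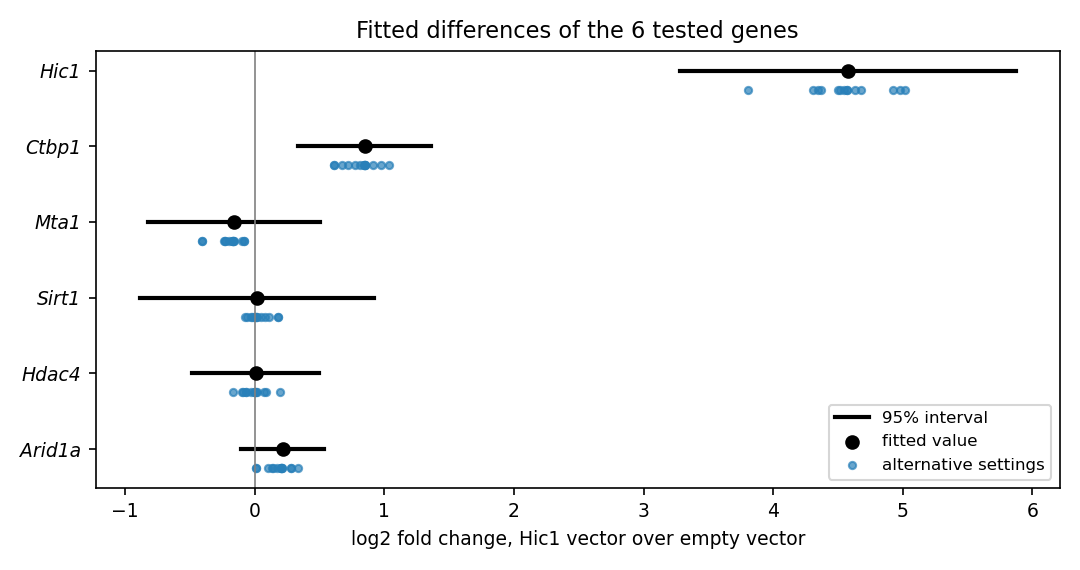
Fitted log2 fold change of the 6 tested genes (black point) with its 95% interval (black line) and the values under the alternative settings (blue points). The interval of Hic1 and that of Ctbp1 lie above 0, and those of the other 4 genes span 0.

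Across genes, levels were compared per length, as RPKM over GENCODE M21 exons. With the empty vector the order was Arid1a at 19.1 ± 1.14 RPKM (SD, n = 2), Ctbp1 at 5.92 ± 1.09, Mta1 at 4.99 ± 0.347, Hdac4 at 2.44 ± 0.413 and Sirt1 at 1.29 ± 0.0390. Hic1 at 0.264 ± 0.0982, Ctbp2 at 0.239 ± 0.173 and Hic2 at 0.234 ± 0.114 RPKM followed and could not be ranked among themselves, nor could Ctbp1 and Mta1. With the Hic1 vector, Hic1 at 8.34 ± 4.88 RPKM moved up beside Ctbp1 at 10.7 ± 1.36 RPKM, and the values of these genes overlapped. The exon length of the vector transcript is not stated in the labels, so this RPKM assumes the chromosomal gene model.

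**Figure D3:**
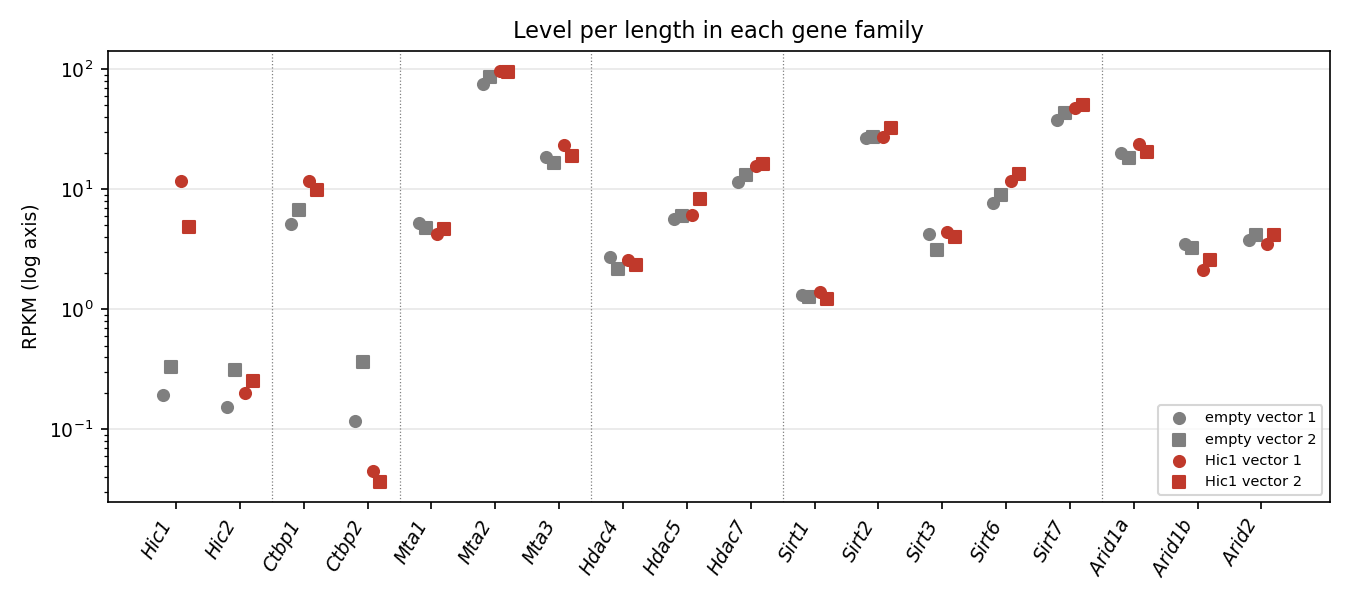
RPKM on a log axis of the members beside other genes of their families, 1 point per library (grey for the empty vector, red for the Hic1 vector, circles for replicate 1 and squares for replicate 2). Ctbp1, Mta2, Hdac7, Sirt7 and Arid1a are the highest shown in their families, and Hic1 leaves the level of Hic2 only with the Hic1 vector.

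The other genes of these complexes were read from 8 lists holding 118 genes besides the members. Of these, 99 were tested, Chd3 rose and none fell, against 1.82% called among all tested genes. At an unadjusted p under 0.05 there were 19, with 12 higher and 7 lower, a share near the 19.1% of all tested genes, against which the counts of such p below are to be read. Their median log2 fold change was 0.07, against 0.01 over all tested genes, and 52 of the 99 were above 0. Chd3, a chromatin remodelling ATPase of NuRD, had 307 and 329 counts with the empty vector and 881 and 1164 with the Hic1 vector. At 74.5 and 82.2 against 124.0 and 132.6 CPM the groups did not overlap, and the log2 fold change was 0.71 ± 0.155 (edgeR adjusted p = 0.0465). That call was lost when any 1 of the 4 libraries was left out, with log2 values of 0.64 without empty vector replicate 1, 0.77 without empty vector replicate 2, 0.76 without Hic1 vector replicate 1 and 0.67 without Hic1 vector replicate 2. It was also lost by limma voom (0.71), with RLE size factors (0.70) and with library sizes alone (0.64), and Chd3 had no GC-corrected value because its identifier had no match in the annotation.

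Of the 14 NuRD genes tested, Mta1 among them, 1 was called, 3 had an unadjusted p under 0.05, and the median log2 value was -0.04. Mbd3, the methyl-CpG-binding-domain subunit, was at 10.9 and 8.74 CPM against 17.7 and 19.8 CPM, and Rbbp4, a histone chaperone, at 222.1 and 152.9 against 158.4 and 128.5 CPM. Chd4, the paralog of Chd3, had a log2 value of -0.16 ± 0.177. These did not pass.

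Of 13 genes of the CtBP complex tested, 0 were called by edgeR, 3 had an unadjusted p under 0.05, and DESeq2 called 1 and limma voom 0. The median was -0.09. Zeb2, a zinc finger repressor that recruits CtBP and marks effector T cells, had the lowest p. It was at 370.9 and 350.8 CPM against 192.6 and 267.9 CPM, with a log2 value of -0.65 ± 0.165 (edgeR adjusted p = 0.0694). Ehmt2, the histone H3 lysine methyltransferase G9a, was at 55.3 and 80.4 against 98.7 and 112.8 CPM (log2 value 0.64 ± 0.197), and Rcor3 had a log2 value of -0.70 ± 0.340. Both missed the threshold. The groups did not overlap in 6 of the 13 genes, among them Zeb2 (lower), Ehmt2 and Ctbp1 (higher). That share is near the 51.4% of all tested genes.

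Of 22 SWI/SNF genes tested, 0 were called by edgeR, 5 had an unadjusted p under 0.05, DESeq2 called 1 and limma voom 0, and 11 lay above 0. Smarcc2, a scaffold subunit also called BAF170, had 501 and 458 counts against 584 and 600, or 121.6 and 114.4 against 82.2 and 68.4 CPM. Its log2 value was -0.65 ± 0.164 with an edgeR adjusted p of 0.0661. It was called in 7 of 14 alternatives, among them DESeq2 and the GC correction, each with a lower level in the Hic1 vector group. Bcl7a was at -1.29 ± 0.472, Smarca2, an ATPase of the complex, at -0.44 ± 0.169 and Brd9, a bromodomain subunit, at 0.39 ± 0.157 on the log2 scale, none of which passed.

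Class IIa deacetylases with their NCoR corepressors and Mef2 partners gave 0 calls among 11 tested, with a median of 0.08, 1 unadjusted p under 0.05, and 0 calls by DESeq2 and limma voom. Among them Mef2a, a transcription factor bound by class IIa deacetylases, was at 71.4 CPM in empty vector replicate 1 and at 28.1 to 29.8 CPM in the other 3 libraries. Its log2 value was -0.80 ± 0.359. The value thus rests on 1 library: without empty vector replicate 1 it was -0.03. Gps2 and Tbl1x, subunits of the NCoR complex, were at 0.35 ± 0.173 and -0.29 ± 0.188.

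The sirtuin and NAD supply list gave 0 calls among 14 tested by edgeR, with 2 unadjusted p under 0.05 and 0 calls by DESeq2 and limma voom. Of the 14, 12 were above 0 with a median of 0.31, against 50.9% above 0 and a median of 0.01 over all tested genes. Rps19bp1, which encodes an activator of Sirt1, was at 8.74 and 11.2 CPM against 18.2 and 18.8 CPM (log2 value 0.87 ± 0.317). Sirt6, a nuclear deacetylase of histone H3, was at 21.6 and 25 against 32.4 and 37.6 CPM. Nmnat2, an enzyme of NAD synthesis, and Sirt7, a nucleolar deacetylase, were at 0.91 ± 0.448 and 0.29 ± 0.143. Nmnat2 was at 0.46 without empty vector replicate 1 and at 1.56 without empty vector replicate 2. After GC correction the log2 values were 0.62 for Rps19bp1, 0.34 for Sirt6 and 0.04 for Sirt7, against 0.87, 0.58 and 0.29 before it. None of these passed, and Ccar2, the Sirt1 inhibitor, was at 68.9 and 80.4 against 94.6 and 71.0 CPM.

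Substrates of Sirt1 and the p53 axis gave 0 calls among 10 tested by edgeR, with 4 unadjusted p under 0.05, 0 calls by DESeq2 and limma voom, and a median of 0.29. Trp53, the gene of p53, was at 91.5 and 116.2 CPM against 154.0 and 147.6 CPM (log2 value 0.54 ± 0.163, edgeR adjusted p = 0.107). Mdm4, an inhibitor of p53, was at 198.1 and 206.1 against 152.5 and 132.9 CPM (-0.50 ± 0.149, edgeR adjusted p = 0.101). Bax, a p53 target that promotes apoptosis, was at 0.50 ± 0.174. The groups did not overlap for these 3 genes, as for 51.4% of all tested genes, and none passed.

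Enzymes of sumoylation and acetylation, which modify Hic1, gave 0 calls among 20 tested by edgeR, with 1 unadjusted p under 0.05, 0 calls by DESeq2 and limma voom, and a median of -0.21. That 1 gene was Pias4, a SUMO ligase, at 38.8 and 37.0 CPM against 61.5 and 60.2 CPM (log2 value 0.68 ± 0.195, edgeR adjusted p = 0.0921). Sae1, part of the SUMO-activating enzyme, was at 0.27 ± 0.147. Neither passed.

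Of 14 genes reported as Hic1 targets in other cells, Sirt1 included, only 5 had enough counts to be tested, and 0 were called (2 with an unadjusted p under 0.05, 0 by DESeq2 and limma voom). E2f1, a cell cycle transcription factor, was higher in value, at 4.13 and 6.0 CPM against 9.57 and 10.8 CPM (log2 value 0.97 ± 0.414, edgeR adjusted p = 0.209). Ptch1, the Hedgehog receptor, was lower in value, at 34.7 and 40.0 against 25.6 and 23.4 CPM (-0.60 ± 0.233, edgeR adjusted p = 0.184). Cdkn1a, the gene of the cell cycle inhibitor p21, was at -0.39 ± 0.437. None of these passed. Atoh1 and Fgfbp1 had 0 counts in every library, and Ackr3 and Cdkn1c had 4 and 6 counts in Hic1 vector replicate 2 and 0 elsewhere.

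**Figure D4:**
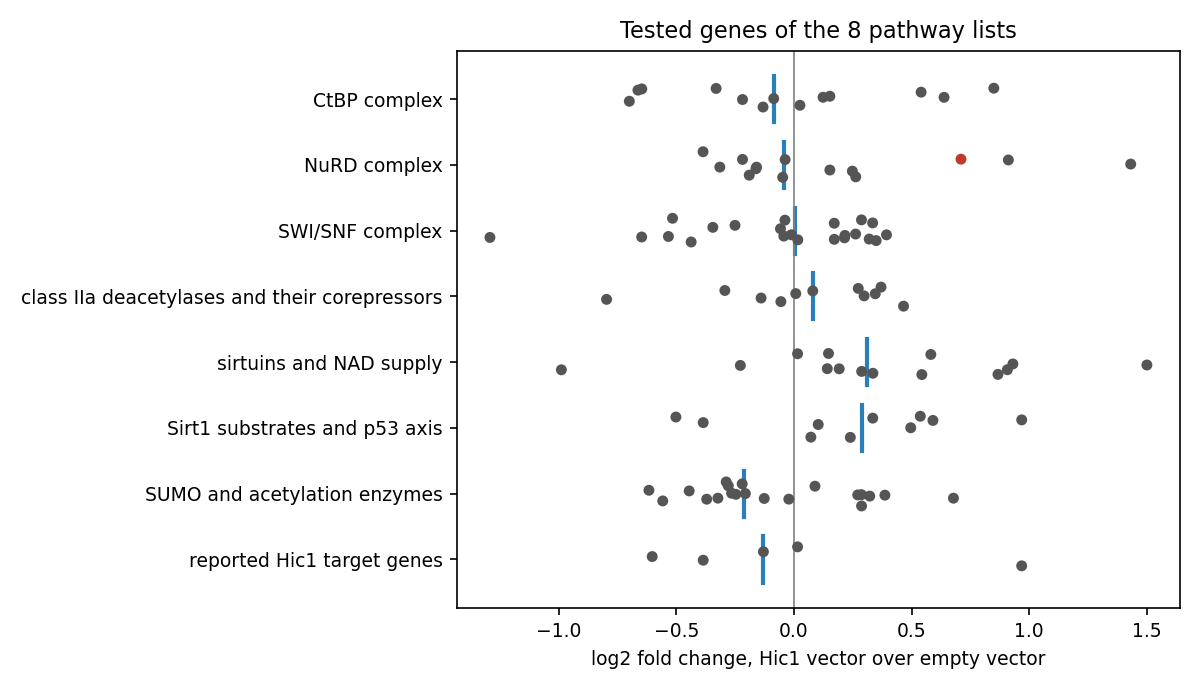
Log2 fold change of each tested gene in the 8 lists, members included, with 1 point per gene (red where called) and a blue bar at the list's median. Chd3 in the NuRD list is the only called gene, and the list medians lie between -0.21 and 0.31.

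The genes whose profile over the 4 libraries lay nearest to that of Hic1 were P2rx7, Asb2, Cpne7, Ncf1, Cd163l1 and Ckb. Nearness was the Euclidean distance between log2(CPM + 0.5) values, each centred on its own mean, among 8576 protein-coding genes with a mean of at least 5 CPM. The nearest was P2rx7, an ATP-gated channel, at a distance of 0.697, and Asb2, a ubiquitin ligase subunit, followed at 1.13. P2rx7 was at 1.46 and 0.999 CPM against 45.5 and 25.3 CPM, and so shared with Hic1 both the rise and the higher value in Hic1 vector replicate 1. Cpne7, a copine, was at a distance of 1.76 and Ncf1, a subunit of the NADPH oxidase, at 2.00. Cd163l1, a scavenger receptor known from gamma delta T cells, was at 2.20 and Ckb, a creatine kinase, at 2.30. Cd163l1 was at 5.34 and 0.50 CPM against 79.3 and 42.8 CPM and missed the threshold with an edgeR adjusted p of 0.0503. It was called in 8 of 14 alternatives, DESeq2 among them, and its log2 value of 4.22 was 6.26 without empty vector replicate 1 and 3.43 without empty vector replicate 2. Ckb was higher in Hic1 vector replicate 2 than in replicate 1, unlike Hic1. Selection by this distance favours genes with a large difference between the groups and with the replicate order of Hic1. With the empty vector, P2rx7, Asb2, Cpne7, Cd163l1 and Ckb had means of 1.23 to 2.92 CPM, and Ncf1 of 6.67 CPM. All but Ncf1 thus passed the floor of 5 CPM only through the Hic1 vector libraries. Their differences and replicate order are therefore given as a description.

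**Figure D5:**
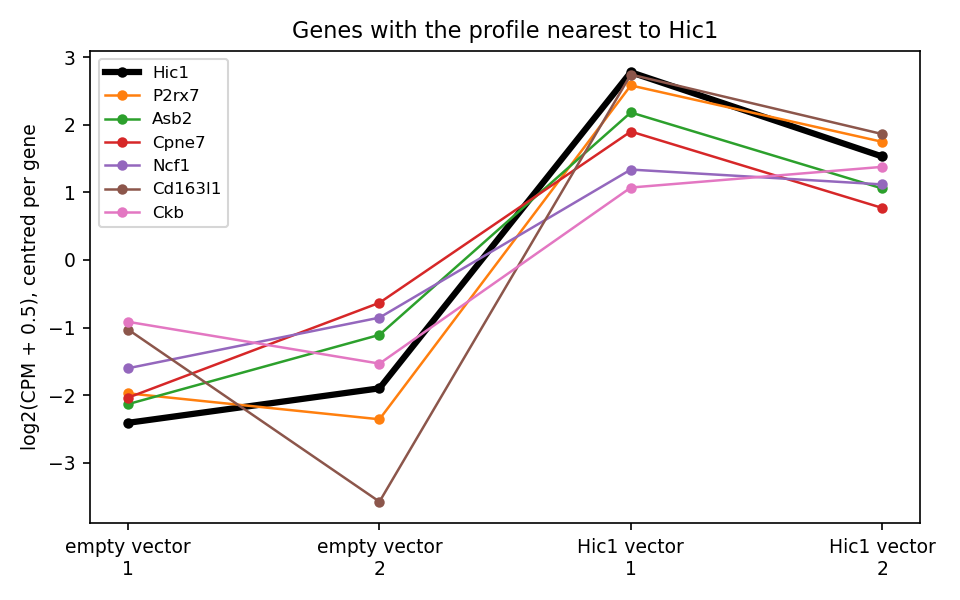
log2(CPM + 0.5), centred on each gene's mean, over the 4 libraries for Hic1 (thick black line) and the 6 genes nearest to it. All 7 lines are low in the control libraries and high in the Hic1 vector libraries, and P2rx7 follows Hic1 at a distance of 0.697.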

How the data were processed

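The authors deposited raw counts, whole numbers for each gene in each of the 4 libraries. Per the labels' protocols, resorted cells were lysed and polyadenylated RNA was made into Smart-seq2 libraries. The submitters' processing notes name the genome mm10, featureCounts 1.5.3, STAR 2.5.2b, Trimmomatic 0.38 and DESeq2 1.3.2; they are listed here without the role of each. For strand setting and annotation release the sources used here give nothing. A normalized table of the same libraries was not used.

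Versioned gene identifiers were matched to GENCODE M21 (98.1% found) for position, exon length and transcript GC. Genes were kept by filterByExpr (minimum count 10, minimum total 15), scaled by TMM, and the group was the only term in the quasi-likelihood test of edgeR 4.0.16 (robust, prior count 2) in R 4.3.3. Log2 values from edgeR are shrunken toward 0 by that prior count, most at low counts. Standard errors come from the unshrunken coefficient and the F statistic. The 95% intervals set a half-width from that error and the total degrees of freedom around the shrunken value. CPM uses TMM-scaled library sizes, and RPKM divides it by exon length. The common biological coefficient of variation was 0.195. The test was tested on simulated data. The 14 alternatives include DESeq2 1.42.0, limma 3.58.1 (voom), GC correction (loess span 0.3) and omission of each library. The members and lists were chosen with earlier results of these data known, so no list was tested as a set. Named are all members, called genes and up to 4 genes of lowest p in each of 8 lists, the 6 genes nearest to Hic1, and protein-coding genes within 100 kb of Hic1. Some genes under these rules are not reported here, though list and marker totals include them. Other paralogs, inhibitors and untested targets were named after their values were seen.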

Additional observations from a re-analysis of the deposited data

How the results depend on the processing

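The count of called genes was 213 with the settings used, 420 by DESeq2, 321 with library sizes alone, 819 with no filter on low counts, 335 with the stricter filter, 86 after GC correction (of 11353 genes with a GC value, Chd3 and Zeb2 not among them) and 8 to 318 with 1 library left out. It was 8 without empty vector replicate 1. Leaving out a library leaves its group with 1, which is then assumed to vary like the other group. Hic1 had log2 values of 3.81 to 5.02 with 1 library left out. It was below the threshold by limma voom (4.68) and without empty vector replicate 1 (4.34). Among members other than Hic1, 1 gene (Ctbp1) was called with no filter, and 0 with any 1 library left out. The lists' 1 called gene became 3 by DESeq2, 0 by limma voom, 0 with RLE size factors, 6 with no filter, 3 with the stricter filter and 0 to 3 with 1 library left out. Sirt1, near 0 and at -0.0756 to 0.113 with 1 library left out, changed sign by limma voom (-0.0065), with library sizes alone (-0.0581), with the stricter filter (-0.0231), without empty vector replicate 2 (-0.0260) and without Hic1 vector replicate 1 (-0.0756). Hdac4, also near 0 and at -0.166 to 0.192 with 1 library left out, changed sign by DESeq2 (-0.0014), with RLE size factors (-0.0015), with library sizes alone (-0.0691), with the stricter filter (-0.0323), after GC correction (-0.101), without ribosomal RNA genes (-0.00067), without empty vector replicate 2 (-0.166) and without Hic1 vector replicate 1 (-0.0665). The causes were not tested. Mta1 stayed below 0 and Ctbp1 and Arid1a above 0 in all 14 alternatives. Arid1a was close to 0, however, after GC correction (0.0118) and with GC correction and the replicate number as a block (0.00969).

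The replicate numbers were checked as pairs: the difference between replicates 1 and 2 correlated between the groups with r = 0.243 across 11676 genes, which are not independent. With the replicate number as a block, 794 genes were called, 1 of the members other than Hic1 (Ctbp1, log2 value 0.85, edgeR adjusted p = 0.0447) and 6 list genes: Chd3, Zeb2, Ehmt2, Smarcc2, Mdm4 and Pias4 (edgeR adjusted p from 0.0166 to 0.0441). With GC correction and the replicate block together, 446 genes were called and Hdac4 was at -0.0917. Ctbp1 was not called in that setting (log2 value 0.61, edgeR adjusted p = 0.154). Only 1 list gene was called there, Smarcc2 (-0.84, edgeR adjusted p = 0.00998), and Chd3 and Zeb2 had no GC value. With 2 libraries per group and 2 to 57 counts, Ctbp2, Hic2 and Sirt1 are limited by low counts and by the few libraries.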

Other observations

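The 4 protein-coding genes within 100 kb of Hic1 on chromosome 11 were read as a description of the locus. Smg6, a nonsense-mediated decay factor whose annotated end lies 117 bases from Hic1, was at 44.9 and 44.7 CPM with the empty vector and at 38.7 and 31.8 CPM with the Hic1 vector (log2 value -0.34 ± 0.216, SE). Dph1, an enzyme of diphthamide synthesis 8124 bases away, was at 1.46 and 3.5 CPM against 10.8 and 6.5 CPM. Its log2 value was 1.68 ± 0.556 with an edgeR adjusted p of 0.111, so it did not pass. Its groups did not overlap, as in 51.4% of all tested genes. Ovca2, a serine hydrolase gene whose span overlaps that of Dph1, was at 7.52 and 11.7 CPM against 11.8 and 10.8 CPM, with overlap. Rtn4rl1, a Nogo receptor relative, was at 25.7 and 15.7 against 13.2 and 10.6 CPM (-0.79 ± 0.334), lower in value with the Hic1 vector. None of the 4 was called (2 had an unadjusted p under 0.05, Dph1 and Rtn4rl1, as did 19.1% of all tested genes).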
